A study of Homo sapiens with 6 samples.

Results

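The BCL2 family of cell death regulators was followed through 10 genes of the deposited count table, taken by their gene names: the pro-survival genes BCL2L1, MCL1 and BCL2, the effector genes BAX and BAK1, and the BH3-only genes BBC3, PMAIP1, BCL2L11, BID and BAD. Each name matched a single row among 58735 genes, and all 10 had enough reads to be tested. The study measured RNA in HUCCT1, an established human cholangiocarcinoma (bile duct cancer) line. Cells treated with siC1QBP, a small interfering RNA against C1QBP, gave 3 libraries, and cells treated with siNC, a control siRNA, and labelled as wild type gave 3 libraries. C1QBP encodes a protein found mainly in the mitochondrial matrix, and the study title places it in proliferation with PAICS, FAK and c-Myc. How many siRNAs were used, their sequence and dose, and the time of harvest are not known from the labels, and all 6 libraries come from a single cell line.

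Proteins of the BCL2 family decide whether the outer mitochondrial membrane is opened during apoptosis. BAX and BAK1 form the pores through which cytochrome c leaves the mitochondrion, the pro-survival proteins hold them in check, and the BH3-only proteins either occupy the pro-survival proteins or engage the effectors directly. Much of this control lies in protein binding, splicing, phosphorylation and degradation, which gene-level RNA counts do not show. BCL2L1 and MCL1, for instance, each give long and short splice forms with opposing actions, and their reads are summed here.

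The family is joined by the BH3 segment, a short helix that fits into a groove on the pro-survival proteins, and its core is shown here because it is the sequence that all 3 classes share. The stretches below are 30 bases of coding sequence from the principal transcript of each gene in GENCODE release 29, which is on the hg38 assembly named in the submitters' processing notes. Capitals mark the codon of the conserved leucine and, after 3 codons in lower case, the pair of codons that ends the core. The pair encodes a small residue followed by aspartate.
BCL2L1: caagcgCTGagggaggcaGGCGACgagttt
MCL1: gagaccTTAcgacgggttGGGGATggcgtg
BCL2: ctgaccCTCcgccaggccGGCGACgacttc
BAX: gagtgtCTCaagcgcatcGGGGACgaactg
BAK1: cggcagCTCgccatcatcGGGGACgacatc
BBC3: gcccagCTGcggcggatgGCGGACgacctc
PMAIP1: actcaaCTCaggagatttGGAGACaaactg
BCL2L11: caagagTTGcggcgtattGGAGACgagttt
BID: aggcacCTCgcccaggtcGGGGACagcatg
BAD: cgcgagCTCcggaggatgAGTGACgagttt

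The small residue was glycine in 8 genes, alanine in BBC3 and serine in BAD. The 45 pairs of stretches had 10 to 21 of 30 bases in common, with a median of 15, and the closest pairs were BAK1 with BID and BCL2L11 with BAD (21 bases each). The amino acid pattern searched was leucine, any 3 residues, then glycine, alanine or serine, then aspartate; it is short and occurred in 34.7% of 19780 principal coding sequences, so a match alone marks no BH3 segment. BID held a second match, with serine, which was set aside in favour of the glycine form. The 3 genes that passed the test between siC1QBP and siNC carry their cores at chr19:48955781-48955810 on the plus strand (BAX), chr18:59902667-59902696 on the plus strand (PMAIP1) and chr11:64271628-64271657 on the minus strand (BAD), each within a coding exon.

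Raw counts totalled 17122252 to 18847340 per siC1QBP library and 18313264 to 20416243 per siNC library. Mitochondrial genes held 4.8%, 4.28% and 4.20% of counts in siC1QBP replicates 1, 2 and 3, against 3.88%, 3.69% and 3.66% in siNC replicates 1, 2 and 3, and 25001 to 25506 genes had a count in siC1QBP, against 23395 to 23841 in siNC libraries; neither measure overlapped between the groups. Levels are given as CPM, the count of a gene relative to the total of its library after scaling by the TMM method, group means with their SD over 3 libraries, and changes as the log2 of the ratio of siC1QBP to siNC, each with a standard error (SE). A gene was called when its p-value in edgeR's quasi-likelihood test, adjusted by Benjamini-Hochberg over all 15530 tested genes, was under 0.05. The targeted gene, C1QBP, was at 58.9 ± 1.19 CPM with siC1QBP, against 180 ± 4.94 CPM with siNC, or 32.7% of the siNC level (edgeR adjusted p = 1.39e-12; an exact permutation test, two-sided, gave p = 0.1, which is the limit for groups of 3). The 6 biliary epithelial markers were all tested, with a summed level of 7480 to 7825 CPM under siC1QBP and 8299 to 8801 CPM under siNC. KRT7 and KRT19 among them fell (log2 fold change -0.26 and -0.19, edgeR adjusted p = 0.000214 and 0.00862). EPCAM (-0.04), KRT8 (-0.14), KRT18 (0.09) and SOX9 (0.14) were not called, and SOX9 was higher in siC1QBP with no overlap. KRT7 had the highest level of the markers in the sum (3151 CPM under siC1QBP and 3766 CPM under siNC). The 8 hepatocyte and leukocyte markers were all too low to test, and 3 of them had no count; fibroblast markers summed to 9.34 to 12.6 CPM with siC1QBP, against 8.22 to 10.5 CPM with siNC, and endothelial markers to 3.05 to 3.95 CPM with siC1QBP, against 2.47 to 3.70 CPM with siNC. Within each group, replicate 1 stood apart: the chi-square per degree of freedom between siC1QBP replicates was 6.66 and 6.77 for the pairs with replicate 1 and 2.09 for the other pair, and between siNC replicates 3.67 and 3.40 against 2.13. Nothing in the labels ties the replicates to separate cultures; the p-values therefore rest on the spread between these libraries alone, which may be technical. Fewer cells that express a gene and less RNA of it per cell cannot be told apart in these bulk samples.

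Of the 10 family members, 2 fell in siC1QBP cells, the effector BAX and the BH3-only gene BAD, and 1 rose, the BH3-only gene PMAIP1. The other 7, among them all 3 pro-survival genes, did not pass. The share called among all tested genes was 14.3% (6.47% higher and 7.84% lower), and in a set of 10 genes the 3 calls are not read as a property of the family. With library size as the only scaling, 1253 of all tested genes were higher and 908 lower, against 1005 and 1217 with TMM scaling, and the same 3 members were called. CPM of the groups did not overlap in 4 members, 2 higher (BCL2L1 and PMAIP1) and 2 lower (BAX and BAD); the background for no overlap was 32.6% of tested genes, 16% higher and 16.6% lower, so this count is near the background.

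**Figure D1:**
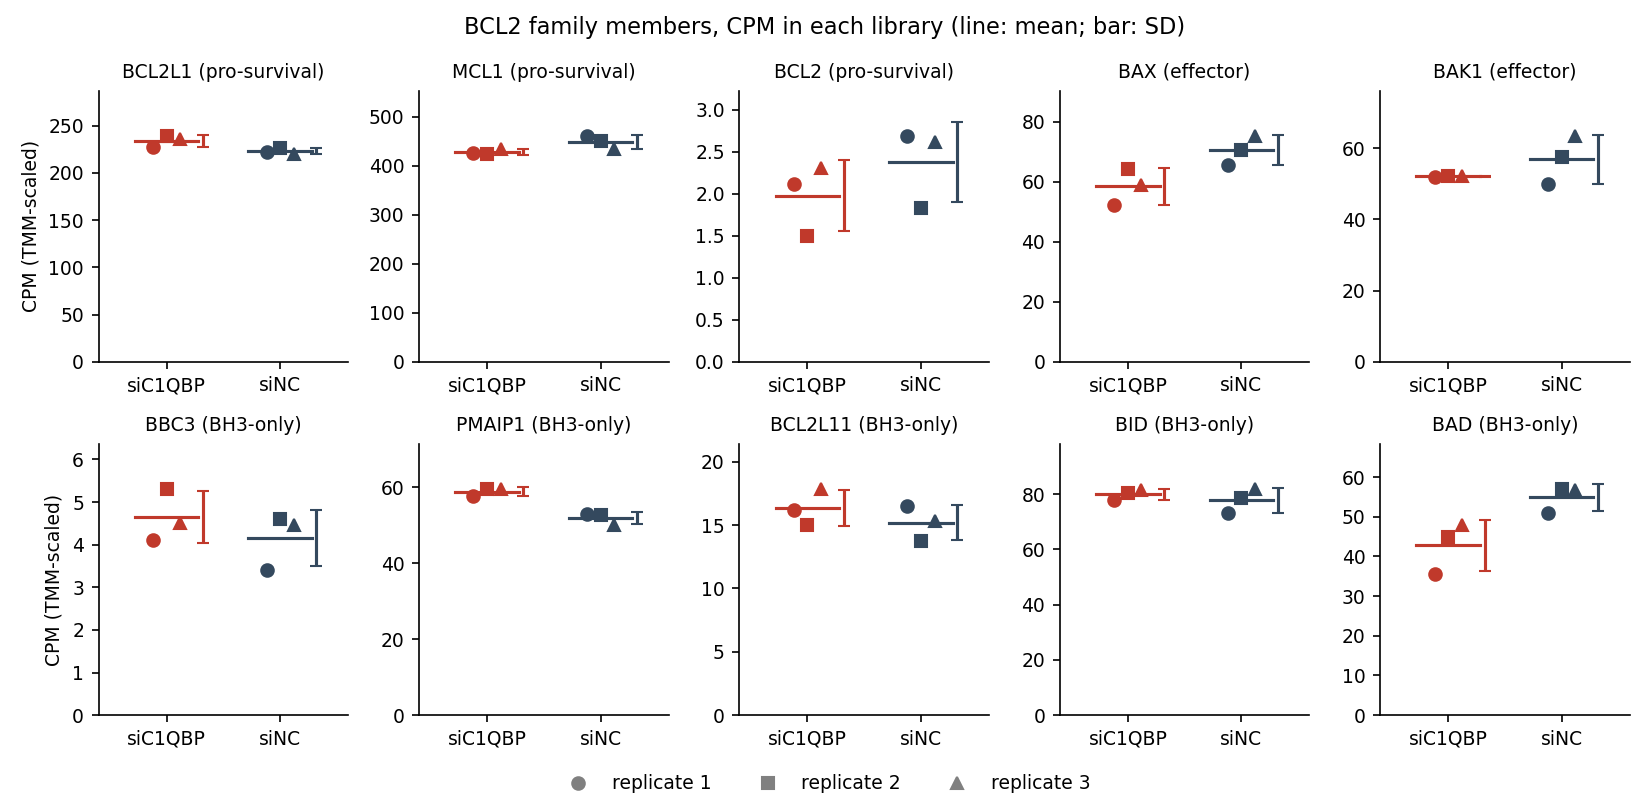
TMM-scaled CPM of each member (y axis, from 0) in the 3 siC1QBP and 3 siNC libraries (x axis); symbols are replicates, horizontal lines group means and bars the SD. BAX and BAD lie lower in every siC1QBP library than in any siNC library, PMAIP1 lies higher, and most other members overlap.

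The pro-survival genes were dominated by MCL1 and BCL2L1. MCL1 (ENSG00000143384; hg38 chromosome 1, 150574551 to 150579738, minus strand), a short-lived protein that restrains BAK1, stood at 426, 425 and 436 CPM in siC1QBP replicates 1, 2 and 3, against 462, 451 and 434 CPM in siNC replicates 1, 2 and 3. The groups overlapped only through siC1QBP replicate 3 and siNC replicate 3, and the gene was not called (log2 fold change -0.07, SE 0.04; 95% interval -0.15 to 0.02; edgeR adjusted p = 0.302). BCL2L1 (ENSG00000171552; chromosome 20, 31664452 to 31723989, minus strand), the gene of BCL-xL, stood at 227, 239 and 236 CPM in siC1QBP, against 222, 227 and 220 CPM in siNC libraries. Every siC1QBP library was above every siNC library, the closest pair (siC1QBP replicate 1 and siNC replicate 2) differing by less than 1 CPM, and the gene was not called (0.07, SE 0.04; 95% interval -0.02 to 0.16; edgeR adjusted p = 0.294). Neither interval holds a change as large as the estimates for BAX and BAD.

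BCL2 itself (ENSG00000171791; chromosome 18, 63123346 to 63320128, minus strand), the founding member of the family, had few reads. Its levels were 2.11, 1.5 and 2.31 CPM in siC1QBP, against 2.69, 1.84 and 2.61 CPM in siNC libraries, which rest on 26 to 49 reads per library. The interval of its log2 fold change ran from -0.80 to 0.28 (estimate -0.26, SE 0.26; edgeR adjusted p = 0.550), so that a change of the size seen in the called members was not detectable at this depth. Exons of BCL2L1 share 1424 of their 3314 bases with the antisense RNA ABALON on the other strand. ABALON had 11.5 CPM under siC1QBP and 11.1 CPM under siNC (log2 fold change 0.04, SE 0.11; edgeR adjusted p = 0.843), far fewer reads than BCL2L1, and whether strand was used in counting is not given in the sources used here.

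BAX (ENSG00000087088; chromosome 19, 48954815 to 48961798, plus strand) encodes the effector that moves from the cytosol to the mitochondrial membrane. It stood at 52.1, 64.3 and 58.8 CPM in siC1QBP replicates 1, 2 and 3, against 65.5, 70.7 and 75.3 CPM in siNC replicates 1, 2 and 3. The highest siC1QBP library was just below the lowest siNC library. The library with the lowest BAX and BAD, siC1QBP replicate 1, also had the highest mitochondrial share (4.8%), whose part in these results was not tested. BAX fell to 82.8% of its siNC level in siC1QBP cells (95% interval 74.5% to 92.1%; log2 fold change -0.27, SE 0.07; edgeR adjusted p = 0.0183). With siNC replicate 2 left out the gene no longer passed (log2 fold change -0.27, edgeR adjusted p = 0.0742), nor with siNC replicate 3 left out (-0.22, edgeR adjusted p = 0.112); without siC1QBP replicate 1, the lowest library, the call remained (-0.20, edgeR adjusted p = 0.0325).

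BAK1 (ENSG00000030110; chromosome 6, 33572547 to 33580293, minus strand), the effector that resides in the outer membrane, stood at 52.0, 52.1 and 52.1 CPM in siC1QBP, against 49.8, 57.4 and 63.5 CPM in siNC libraries. The siC1QBP libraries were nearly equal, while siNC replicate 1 was below them and the other siNC libraries above. BAK1 was not called (log2 fold change -0.13, SE 0.07; 95% interval -0.28 to 0.03; edgeR adjusted p = 0.267). Without siNC replicate 1 it was called lower (-0.22, edgeR adjusted p = 0.0388). Whether BAX and BAK1 differ in their change was not tested; the ratio of BAX to BAK1 in TPM (reads per base of gene, set relative to their sum over all genes of the library) was 0.856, 1.05 and 0.965 in siC1QBP, against 1.12, 1.05 and 1.01 in siNC libraries, and the groups overlapped.

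**Figure D2:**
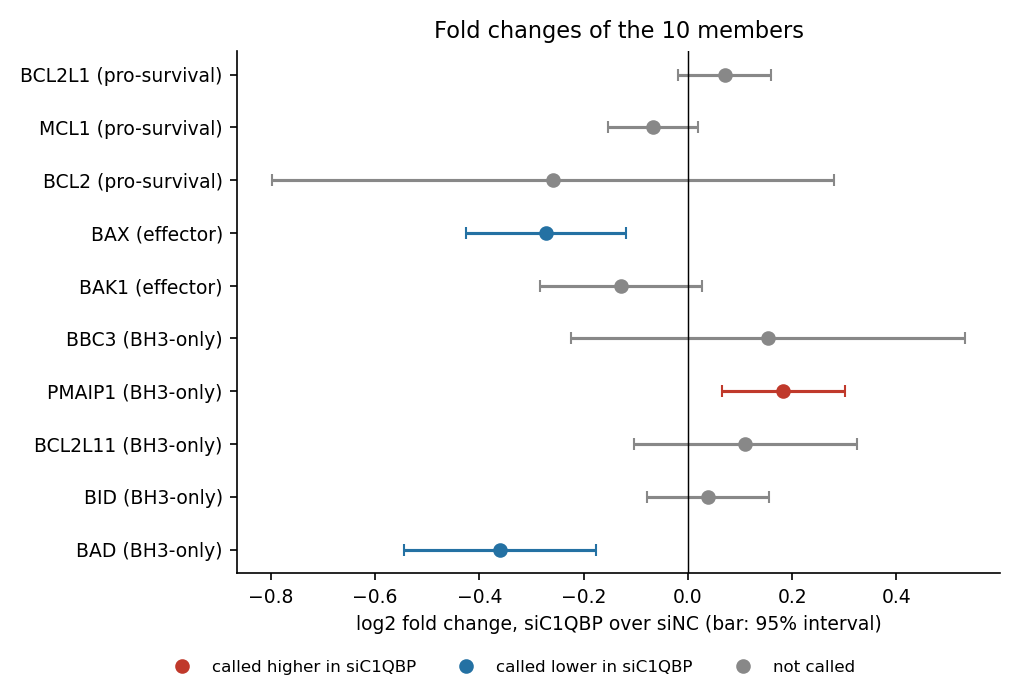
Log2 fold change of each member, siC1QBP over siNC (x axis), with its 95% interval from edgeR's quasi-likelihood fit over 3 libraries a group; colours give the call at an adjusted p of 0.05. BAX and BAD lie below 0 and PMAIP1 above it with intervals that leave out 0, and the interval of BCL2 is the widest.

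Among the BH3-only genes, BAD and PMAIP1 were called in opposite directions. BAD (ENSG00000002330; chromosome 11, 64269830 to 64284704, minus strand), whose protein binds BCL-xL and BCL2 and is held inactive by survival-factor phosphorylation, stood at 35.6, 44.8 and 48.0 CPM in siC1QBP replicates 1, 2 and 3, against 51.0, 57.0 and 56.9 CPM in siNC replicates 1, 2 and 3. All siC1QBP libraries were below all siNC libraries, and replicate 1 was the lowest of its group on both sides. BAD fell to 77.9% of its siNC level in siC1QBP cells (95% interval 68.6% to 88.5%; log2 fold change -0.36, SE 0.09; edgeR adjusted p = 0.0104), the largest change among the called members. With siNC replicate 2 left out the gene no longer passed (-0.33, edgeR adjusted p = 0.0652), nor with siNC replicate 3 left out (-0.34, edgeR adjusted p = 0.0568); without siC1QBP replicate 1 the call remained (-0.25, edgeR adjusted p = 0.0116).

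BAD overlaps GPR137, a membrane protein gene read from the other strand, and the exons of the pair share 404 of the 1708 exon bases of BAD. GPR137 had 54.0 CPM under siC1QBP and 59.4 CPM under siNC (log2 fold change -0.14, SE 0.06; edgeR adjusted p = 0.113). Reads in the shared stretch could belong to either gene if strand was not used in counting, and their part in the fall of BAD was not tested.

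PMAIP1 (ENSG00000141682; chromosome 18, 59899948 to 59904306, plus strand) encodes NOXA, which binds MCL1 and promotes its degradation. It stood at 57.5, 59.4 and 59.5 CPM in siC1QBP, against 52.8, 52.6 and 49.9 CPM in siNC libraries, with no overlap and with a narrow spread in both groups. PMAIP1 rose to 114% of its siNC level in siC1QBP cells (95% interval 105% to 123%; log2 fold change 0.18, SE 0.06; edgeR adjusted p = 0.0364). This call was the least stable of the 3: it did not pass with siC1QBP replicate 2 (edgeR adjusted p = 0.108) or 3 (0.110) left out, without siNC replicate 1 (0.0581), 2 (0.0965) or 3 (0.172), with DESeq2 (adjusted p = 0.0889) and with the loosest count filter (edgeR adjusted p = 0.106). Its fold change stayed between 0.16 and 0.25 in all of these alternatives and in those that kept the call. The ratio of PMAIP1 to MCL1 in TPM was 0.264, 0.274 and 0.267 in siC1QBP, against 0.224, 0.228 and 0.225 in siNC libraries, with no overlap. CPM of PMAIP1 alone already did not overlap, and the ratio was picked after its values were seen. It therefore adds no support to the call.

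The remaining BH3-only genes were not called. BID (ENSG00000015475; chromosome 22, 17734138 to 17774770, minus strand), which caspase-8 cleaves to carry the death receptor signal to mitochondria, stood at 77.7 to 81.5 CPM under siC1QBP and 73.0 to 81.9 CPM under siNC (log2 fold change 0.04, SE 0.06; 95% interval -0.08 to 0.16; edgeR adjusted p = 0.699). BCL2L11 (ENSG00000153094; chromosome 2, 111119378 to 111168447, plus strand), the gene of BIM, which binds all pro-survival members, ranged from 15 to 17.9 CPM under siC1QBP and from 13.7 to 16.5 CPM under siNC (0.11, SE 0.10; 95% interval -0.10 to 0.32; edgeR adjusted p = 0.517). BBC3 (ENSG00000105327; chromosome 19, 47220822 to 47232766, minus strand), the gene of PUMA, ranged from 4.11 to 5.31 CPM under siC1QBP and from 3.40 to 4.61 CPM under siNC (0.15, SE 0.18; 95% interval -0.22 to 0.53; edgeR adjusted p = 0.621). In each of these genes the groups overlapped, and for BBC3 and BCL2L11 the interval still holds changes as large as that of PMAIP1. BCL2L11 shares 727 of its 6658 exon bases with the long noncoding RNA MIR4435-2HG on the other strand, which rose (51.0 CPM under siC1QBP and 44.2 CPM under siNC; log2 fold change 0.20, SE 0.07; edgeR adjusted p = 0.0443).

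Levels can be set beside each other only per length. In TPM over the summed exon length of each gene, the order over all 6 libraries was MCL1 (364), BCL2L1 (250), BAD (104), BAX (90.3), PMAIP1 (89.9), BAK1 (89.4), BID (64.4), BCL2L11 (8.61), BBC3 (5.03) and BCL2 (0.672). MCL1, BCL2L1, BID, BCL2L11, BBC3 and BCL2 were each set off from their neighbours in this order, with library ranges that did not overlap at this length. BAD, BAX, PMAIP1 and BAK1 overlapped and form a tier whose order is not resolved. The length used changes this order: with the length of the principal transcript, 793 bases for BAX against 2587 bases of summed exons, BAX was at 189 TPM, in the third place, with a range of 157 to 216 TPM that overlaps the 191 to 215 TPM of BCL2L1. BID, at 73.5 TPM (67.9 to 77.1 TPM), then lay above BAK1 (54.2 to 67.5 TPM) and overlapped PMAIP1 (58.2 to 72.1 TPM) and BAD (73.6 to 112 TPM). BCL2L11 kept its place but was at 24.1 TPM, and MCL1, BBC3 and BCL2 also kept theirs with no overlap with their neighbours.

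**Figure D3:**
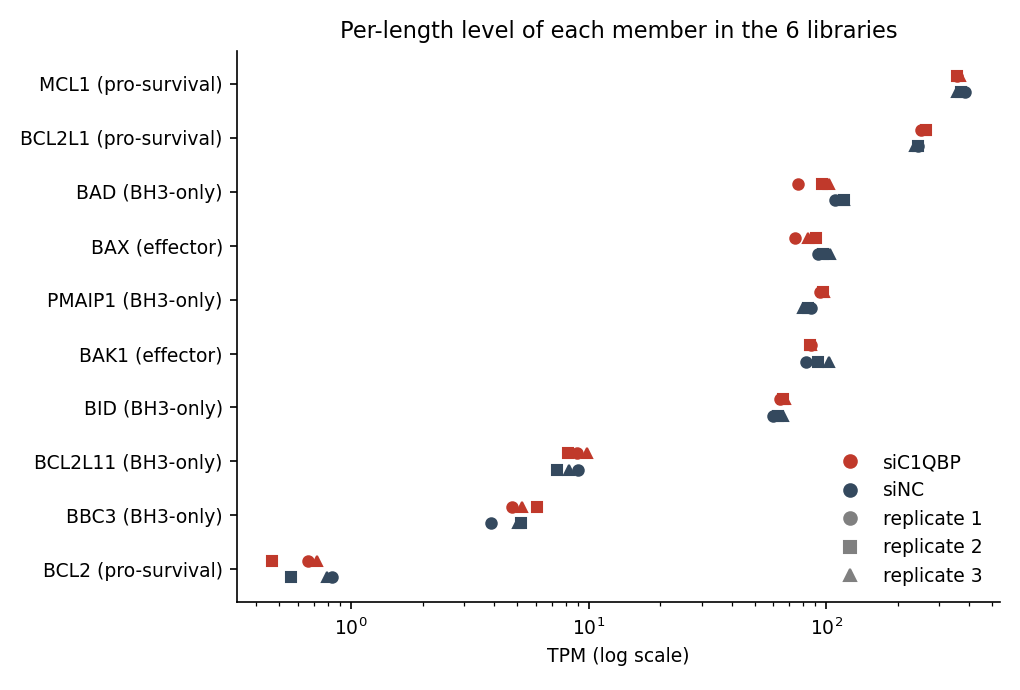
TPM of each member (x axis, log scale) in the 3 siC1QBP libraries (upper row of symbols) and 3 siNC libraries (lower row), with members ordered by their mean over the 6 libraries. MCL1 and BCL2L1 lie above all others and BCL2 lies lowest, under 1 TPM in every library.

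Summed by class, the pro-survival genes came to 619 ± 10.2 TPM in siC1QBP and 612 ± 17.9 TPM in siNC libraries, the effectors to 169 ± 8.34 TPM in siC1QBP and 190 ± 16.4 TPM in siNC libraries, and the BH3-only genes to 268 ± 18.1 TPM in siC1QBP and 275 ± 6.41 TPM in siNC libraries. In every class the ranges of the groups overlapped. The pro-survival share of the summed TPM of the 10 members was 58.6% ± 1.07 in siC1QBP and 56.8% ± 1.88 in siNC libraries. Other genes of the family are not in these sums, which rest on the summed exon length of each gene. With the length of the principal transcript, BAX was at 189 TPM against 90.3 TPM, and MCL1 at 259 TPM against 364 TPM. Class sums and shares were not computed at that length. The ratio of BAD to BCL2L1, whose products bind each other, was 0.304, 0.363 and 0.394 in siC1QBP, against 0.445, 0.488 and 0.502 in siNC libraries. That of BCL2L1 to MCL1, both pro-survival, was 0.704, 0.744 and 0.715 in siC1QBP, against 0.636, 0.662 and 0.668 in siNC libraries. In neither ratio did the groups overlap. Both ratios were picked after their values were seen. BAD was lower and BCL2L1 higher in siC1QBP with no overlap in either gene, so their ratio could not overlap. Among single tested genes, CPM of the groups did not overlap in 32.6%, and the share for ratios of gene pairs was not computed.

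Fold changes in these libraries followed gene length, and the family's called genes are short. With the tested genes split by length into 5 classes of 3106, 2.90% of the shortest class (up to 2292 bases), which holds BAD, PMAIP1 and BAK1, were called higher and 11.4% lower. Of the next class (up to 3760 bases), which holds BAX, BCL2L1 and BBC3, 3.73% were called higher and 11.6% lower. In the longest class, which holds BCL2, 12.7% were called higher and 3.19% lower. BAX and BAD thus moved in the direction that is more common at their length, and PMAIP1 against it. With each library's trend with gene length removed, the log2 fold changes were -0.22 for BAX, -0.29 for BAD and 0.25 for PMAIP1 (limma adjusted p = 0.0309, 0.0146 and 0.00553), and all 3 calls remained.

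**Figure D4:**
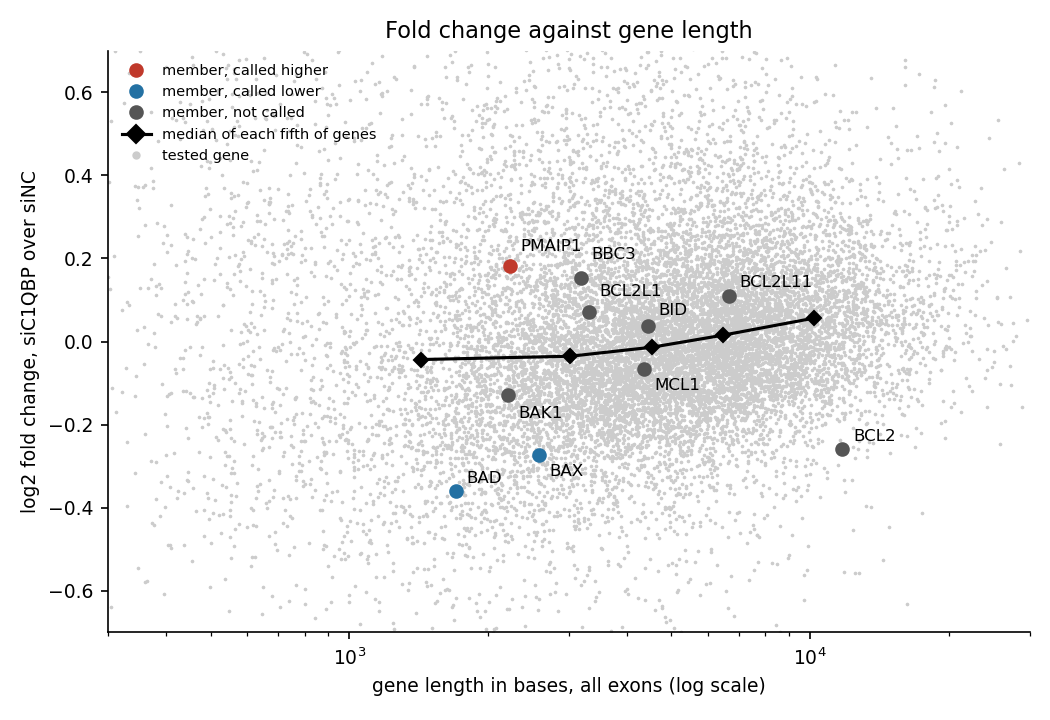
Log2 fold change, siC1QBP over siNC (y axis, shown from -0.7 to 0.7), against the summed exon length of each gene (x axis, log scale); grey points are tested genes, black diamonds the median fold change of each of 5 length classes of tested genes, and labelled points the 10 members. The medians run from -0.04 in the shortest class to 0.06 in the longest, with BAD and BAX below and PMAIP1 above the median at their length.

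The gene whose values over the 6 libraries were most like those of BAD, the member with the smallest p, was SH3GLB2, which encodes an endophilin that binds curved membranes (Pearson r = 0.999 in log2 CPM, n = 6 libraries). MANF, a secreted protein of the endoplasmic reticulum stress response (r = 0.998), and TBCA, a tubulin folding cofactor (r = 0.997), followed, out of 11088 genes with at least 5 CPM. All 3 were lowest in siC1QBP replicate 1, as BAD was. These are the highest of 11088 correlations, each over 6 libraries of both groups, and they include the difference between the groups. Whether these genes share regulation with BAD was not tested. SH3GLB2 (-0.25) and TBCA (-0.24) fell (edgeR adjusted p = 0.0181 and 0.0176), and MANF was not called (-0.16, edgeR adjusted p = 0.0703).

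The wider pathway around the family was read from 8 lists with 66 genes, of which 65 rows were tested. Of these, 6 rose and 7 fell (9.23% and 10.8%, against 6.47% and 7.84% of all tested genes), and 52 did not pass. The lists were chosen with earlier results of these data known, so these shares are not read as a property of the pathway. The median log2 fold change over the lists was -0.02, against 0.00 for all tested genes. Without siNC replicate 2 or siNC replicate 3 the counts were 3 higher and 3 lower.

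Of 12 tested further members of the BCL2 family, 2 rose and 1 fell (median 0.05). BMF, a BH3-only protein that in its resting state is bound to the cytoskeleton, stood at 16.7, 16.0 and 15.4 CPM in siC1QBP, against 10.5, 11.3 and 11.8 CPM in siNC libraries, well apart (log2 fold change 0.52, SE 0.10; edgeR adjusted p = 0.00210). This was a larger rise than that of PMAIP1. BCL2L13, an outer membrane protein known as a mitophagy receptor, stood at 55.7 ± 1.05 CPM under siC1QBP and 47.0 ± 1.79 CPM under siNC (0.24, SE 0.06; edgeR adjusted p = 0.00920), a call lost without siNC replicate 2 (0.0654) or 3 (0.0526; edgeR adjusted p). BCL2L12, an atypical member described as an inhibitor of caspase activation, stood at 37.1, 43.3 and 43.9 CPM in siC1QBP, against 53.3, 60.4 and 60.0 CPM in siNC libraries (-0.48, SE 0.07; edgeR adjusted p = 0.000382). The calls of BCL2L12 and BMF held in all 16 alternatives.

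Downstream of the pores, cytochrome c (CYCS) and its partners in the apoptosome, APAF1 and CASP9, did not pass. Among 4 factors of the intermembrane space 1 fell, the nuclease ENDOG (log2 fold change -0.99, SE 0.15; edgeR adjusted p = 0.000297), with 7.73, 9.87 and 9.66 CPM in siC1QBP, against 13.7, 19.4 and 21.2 CPM in siNC libraries. Of 6 inhibitors of apoptosis proteins, BIRC3 (cIAP2) fell, with 634 ± 26.0 CPM under siC1QBP and 793 ± 21.5 CPM under siNC (-0.32, SE 0.04; edgeR adjusted p = 0.000116), and BIRC6, a giant ubiquitin ligase, rose (0.15, SE 0.05; edgeR adjusted p = 0.0465). BIRC6 no longer passed with siC1QBP replicate 1 or 3, or siNC replicate 2 or 3, left out, with DESeq2, with the loosest count filter and with the length trend removed (adjusted p up to 0.411), while ENDOG and BIRC3 were called in all 16 alternatives.

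On the death receptor route that leads to BID, 2 of 10 genes fell, the adaptors FADD (log2 fold change -0.22, SE 0.06; edgeR adjusted p = 0.0222) and TRADD (-0.33, SE 0.10; edgeR adjusted p = 0.0348), and 1 rose, CFLAR (0.16, SE 0.05; edgeR adjusted p = 0.0375), whose product FLIP blocks caspase-8. FADD averaged 50.9 ± 3.57 CPM under siC1QBP and 59.4 ± 1.59 CPM under siNC, and CFLAR 103 ± 3.30 CPM under siC1QBP and 92.1 ± 1.76 CPM under siNC. TRADD stood at 16.2, 22.2 and 21.7 CPM in siC1QBP, against 25.4, 24.9 and 25.4 CPM in siNC libraries, with siC1QBP replicate 1 the lowest. Each of the 3 calls was lost with at least 2 of the 6 libraries left out in turn, FADD without siNC replicate 2 or 3, TRADD without replicate 1 of siC1QBP or any siNC library, and CFLAR without any library but siC1QBP replicate 1 (edgeR adjusted p up to 0.106, 0.107 and 0.147). None of them held once the length trend was removed (limma adjusted p = 0.0810 for FADD, 0.0544 for TRADD and 0.580 for CFLAR).

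Of 8 outer membrane channels and remodelling partners, the channel VDAC1 fell (332 ± 9.37 CPM under siC1QBP and 366 ± 6.08 CPM under siNC; log2 fold change -0.14, SE 0.04; edgeR adjusted p = 0.0332). Of 6 ubiquitin enzymes acting on MCL1, the deubiquitinase USP13 fell (44.7 ± 2.60 CPM under siC1QBP and 51.1 ± 0.953 CPM under siNC; -0.20, SE 0.06; edgeR adjusted p = 0.0425). Both calls were lost when counts were scaled by library size alone (edgeR adjusted p = 0.0648 and 0.0816), with upper-quartile scaling (0.0904 and 0.0841) and without siC1QBP replicate 3 or any siNC library (edgeR adjusted p up to 0.138 and 0.159), and that of VDAC1 also without siC1QBP replicate 2. The USP13 call was also lost with DESeq2 (adjusted p = 0.0633) and with the filter of at least 5 CPM (edgeR adjusted p = 0.0536). Of all 16 alternatives, 9 lost the VDAC1 call and 10 the USP13 call. Of 12 transcription factors known to act on family genes 1 rose, STAT3, an activator of MCL1 and BCL2L1 transcription in other settings, with 249, 239 and 241 CPM in siC1QBP, against 209, 187 and 189 CPM in siNC libraries (0.32, SE 0.05; edgeR adjusted p = 0.000417).

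**Figure D5:**
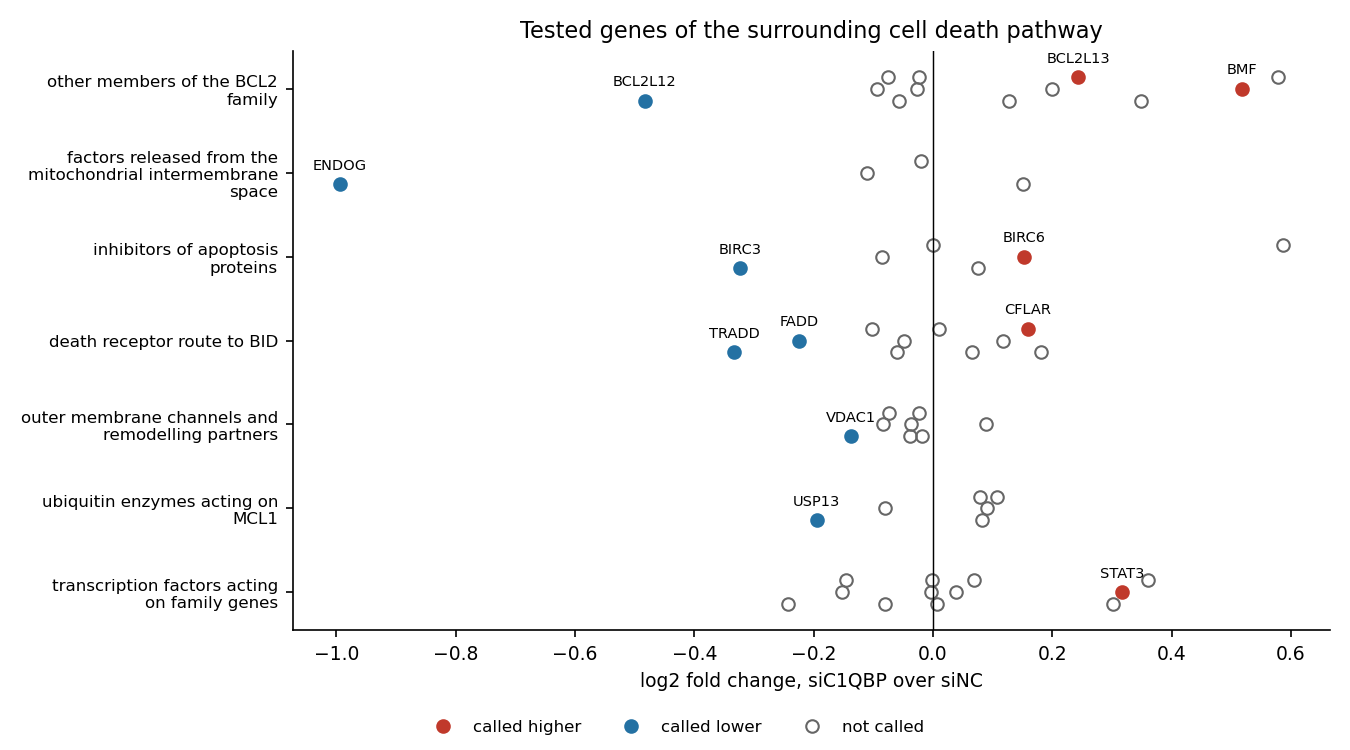
Log2 fold change, siC1QBP over siNC (x axis), of the 58 tested rows of 7 of the pathway lists (y axis), without the apoptosome and caspases; filled points passed an adjusted p of 0.05 and carry their names, open points did not. ENDOG and BCL2L12 lie furthest below 0 among the called genes, and BMF and STAT3 furthest above it.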

How the data were processed

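RNA was isolated with an RNeasy kit and turned into NEBNext Directional libraries, which mark strand, per the labels' protocols. The deposited table holds raw counts, whole numbers that the authors did not normalize, for 58735 genes in 6 libraries. The submitters' processing notes name hg38; the aligner, counting program, strand setting and annotation behind the counts are not stated in any source used here. The deposited table also gives a length per gene, in bases, which for all 10 members equalled the union of their exons in GENCODE release 29.

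Counts were tested with edgeR 4.0.16 (R 4.3.3; quasi-likelihood test, TMM scaling, filterByExpr, treatment as the only term). Benjamini-Hochberg adjustment ran over the 15530 genes that passed the filter. The SE is the fold change divided by the root of the F statistic, and 95% intervals use the t distribution of the fit. The code was tested on simulated counts. Alternatives were DESeq2 1.42.0, limma-voom (limma 3.58.1), other scalings and filters, single libraries left out, a block for the replicate number, an adjusted p under 0.01, and removal of the trend with gene length (lowess on log2 CPM with a prior count of 2). Leaving out replicate 1 of both groups was added after seeing the data. At 17122252 to 20416243 counts, a gene with no count could hold up to 0.147 to 0.175 CPM (3 counts), counting error only.

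The members and the pathway lists were chosen with earlier results of these data known. From each list the text names up to 3 called genes with the smallest p and 1 called the other way (or, with no call, the 2 with the highest mean CPM); for the member with the smallest p, the 3 genes of highest correlation are named. Overlapping genes, the TPM ratios and other uncalled genes were picked after their values were seen. Some genes of the pathway lists are counted but not reported here by name. Sequences came from GENCODE release 29 transcripts. Where genes overlap, reads could have gone to either one.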

Additional observations from a re-analysis of the deposited data

How the results depend on the processing

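Over the 10 members, directions were kept under all alternatives with 1 exception, BID without siNC replicate 1 (log2 fold change -0.010, edgeR adjusted p = 0.931). Leaving out 1 library at a time gave 0 to 1 members called higher and 0 to 3 called lower, with log2 fold changes of -0.35 to -0.20 for BAX, -0.45 to -0.25 for BAD, 0.16 to 0.20 for PMAIP1, -0.22 to -0.045 for BAK1 and -0.010 to 0.075 for BID. It gave 524 to 1115 genes higher and 581 to 1468 lower over all tested genes, and 3 to 6 higher and 3 to 9 lower in the 8 lists. PMAIP1 was not called with DESeq2 (0.17) or with at least 1 count in all libraries together (0.17), which left 0 members higher. At an adjusted p under 0.01, 478 genes were higher and 579 lower, 0 members were called either way (BAX -0.27, BAD -0.36 and PMAIP1 0.18 did not pass; BAD at edgeR adjusted p = 0.0104), and 3 list genes were lower. With library size as the only scaling 4 list genes were lower. Without replicate 1 of either group, an alternative chosen after seeing the data, 1912 genes were lower, BAX (-0.25), BAD (-0.30) and PMAIP1 (0.21) were called and BAK1 was called lower (-0.22, edgeR adjusted p = 0.00944).

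Same-numbered libraries deviated together by r = 0.196, 0.112 and 0.0347 for replicates 1, 2 and 3. Libraries of unlike number had r from -0.151 to 0.0891, so the values for replicates 1 and 2 were the highest. The labels name no batch, and the main fit therefore did not take the numbers as a pairing. siC1QBP replicate 3 correlated best with siNC replicate 2 (r = 0.0891). With the replicate number as a block, 1334 genes were higher and 1758 lower, the members' counts were 1 higher and 2 lower (log2 fold changes -0.27 for BAX, -0.37 for BAD and 0.18 for PMAIP1), and 10 list genes were higher. With the length of the principal transcript, 5 of 10 members kept their place in the TPM order. BCL2 had no adjusted p with DESeq2, and neither BCL2 nor BBC3 passed the filter of at least 5 CPM. At this depth, changes in BCL2 and BBC3 of the size seen in BAX or PMAIP1 could not be resolved. The low-count filter depends on group size and passed 15863 to 15997 genes with a library left out, against 15530 with all; the causes of the changes were not tested.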

Other observations

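Some genes of the pathway lists, chosen here after their values were seen, came close to the threshold or could not be read. BCL2L15, a BH3-containing relative expressed in the gut, stood at 12, 9.92 and 10.6 CPM in siC1QBP, against 8.45, 8.48 and 8.61 CPM in siNC libraries, with no overlap (log2 fold change 0.35, SE 0.12; edgeR adjusted p = 0.0527). DDIT3, the gene of the stress factor CHOP, which can induce BCL2L11, stood at 10.8, 18.2 and 15.7 CPM in siC1QBP, against 11.6, 11.4 and 11.9 CPM in siNC libraries. In siC1QBP replicate 1 it was below the siNC libraries and in the other siC1QBP libraries above them (0.36, SE 0.14; edgeR adjusted p = 0.105). DIABLO, the gene of SMAC, is listed in 2 overlapping rows of the same strand: the row with more reads averaged 2.16 ± 0.283 CPM with siC1QBP, against 1.95 ± 0.466 CPM with siNC, and the other held at most 2 reads in any library. HRK, a BH3-only gene best known from neurons, did not pass the count filter.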
